A study of Mus musculus with 47 samples.

Results

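The 4 genes Dlg1, Dlg2, Dlg3 and Dlg4 encode the membrane-associated guanylate kinases SAP97, PSD-93, SAP102 and PSD-95. They were taken by gene symbol from 45706 genes of the gene table, and their 46 transcripts from 109617 transcripts of the transcript table, in all 47 libraries. The main result was a regional one: Dlg1 RNA was 1.64-fold lower in hippocampus than in prefrontal cortex (PFC) after saline, and lower by about as much under either drug. Such differences were common: after saline 38.3% of all genes passed the test between the regions, 18.8% with hippocampus lower. Differences of Dlg2, Dlg3 and Dlg4 between the regions did not pass the test. No member passed the test under either drug in either region, and Dlg4 was the most abundant of the 4 genes per kilobase in every library.

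These proteins are scaffolds. Each has a row of PDZ domains that grip the tails of receptors, channels and adhesion proteins, then an SH3 domain and an inactive guanylate kinase domain that reaches deeper scaffold proteins. PSD-95 is the abundant member of excitatory synapses of the forebrain, where it holds NMDA receptors directly and AMPA receptors through their TARP subunits. PSD-93 is its close relative, SAP102 is the member best known from young synapses, and SAP97 binds the AMPA receptor subunit GluA1 and also lies outside the synapse. PSD-95 reaches the membrane by palmitoylation of cysteines near its start, so alternative first exons decide which forms can be anchored in that way.

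The study measured polyadenylated RNA in PFC and hippocampus of diet-induced obese mice. Mice received saline, 56 mg/kg of the PICK1 inhibitor mPD5 (the groups PICK1i) or 25 mg/kg of the PSD-95 inhibitor UCCB01-147 (the groups PSD-95i) once a day for 5 days, and tissue was taken 2 h after the last injection. All groups share the obesity, and no untreated or lean group was analysed here. PFC had 8 libraries of each treatment, and hippocampus had 7 of saline and 8 of each inhibitor. The match of the group names to the compounds rests on general knowledge of the compounds. The protocol in the labels speaks of another brain part, the hypothalamus, and of 6 saline mice, which fits neither the tissue labels nor the group sizes. The labels tie no library to a mouse, so every p-value here rests on the spread among libraries, which may in part be technical. Strain, age and sex are not stated in the labels. The inhibitors act on protein, so the level of Dlg4 RNA is no check of the labels.

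Depth was 5434477 to 12673677 estimated counts a library in PFC and 5378175 to 13139410 in hippocampus. Levels below are normalised CPM, each library's counts scaled to a common total after TMM scaling. Pieces of neighbouring regions were present in some libraries, seen as sums of marker genes in CPM. The library that stood apart most was hippocampus PICK1i replicate 7. Its 4 thalamic markers summed to 1549 against at most 186 in the rest of its group, its 4 markers of excitatory neurons to 1110 against at least 4555, and its 3 CA1 markers to 88.7 against at least 387. Striatal markers summed to 1494 in hippocampus saline replicate 1, 995 in hippocampus PICK1i replicate 2 and 420 in PFC saline replicate 1, against at most 73.9, 65.5 and 172 in the rest of those groups. Olfactory bulb markers stood out in PFC PICK1i replicate 6 (190) and PFC PSD-95i replicate 6 (22.2). Choroid plexus markers summed to over 1000 CPM in 5 hippocampal libraries, saline replicate 5, PICK1i replicate 8 and PSD-95i replicates 3, 6 and 7. Against the tissue labels, 3 markers of the dentate gyrus summed to 6.65 to 14.1 CPM in PFC and 23.997 to 417 in hippocampus.

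The forms of the 4 genes differ at the start of the coding sequence, and the first 60 coding bases are shown because they set which forms carry cysteine codons there. Sequences run 5′ to 3′ from the start codon, from the transcripts of GENCODE release M21 (genome build GRCm38), and capitals mark in-frame cysteine codons (TGC or TGT). All 4 genes lie on the plus strand.
Dlg4 start B: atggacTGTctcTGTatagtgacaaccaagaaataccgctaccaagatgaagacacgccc
Dlg4 start A: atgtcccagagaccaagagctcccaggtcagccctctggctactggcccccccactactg
Dlg4 start E: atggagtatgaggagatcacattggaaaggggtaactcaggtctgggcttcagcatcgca
Dlg2 start A: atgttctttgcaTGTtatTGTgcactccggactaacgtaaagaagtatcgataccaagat
Dlg3 start A: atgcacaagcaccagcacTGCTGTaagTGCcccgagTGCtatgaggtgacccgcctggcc
Dlg1 start A: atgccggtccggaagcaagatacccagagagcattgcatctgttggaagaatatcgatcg
Dlg1 start B: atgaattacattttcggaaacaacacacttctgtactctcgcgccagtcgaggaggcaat
The start codons lie on chromosome 11 at 70018920 (Dlg4 start B), 70017215 (A) and 70030625 (E), on chromosome 7 at 91091007 (Dlg2 start A), on chromosome X at 100768072 (Dlg3 start A) and on chromosome 16 at 31664852 and 31754783 (Dlg1 starts A and B). Dlg4 start B has cysteine codons at positions 3 and 5, the pair known to be palmitoylated in PSD-95. Dlg2 start A has them at 5 and 7, and Dlg3 start A at 7, 8, 10 and 13. The 2 starts of Dlg1, and starts A and E of Dlg4, have none in these 60 bases.

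Dlg4 was the most abundant member per length. To compare levels between genes, each transcript's CPM was divided by its annotated length and summed over the gene. Dlg4 (chr11:70016942-70047522, 13 transcripts in the table) then stood at 423 ± 32.2 CPM per kb in PFC (SD, n = 24) and 417 ± 45.2 in hippocampus (SD, n = 23). It made up 81.7% ± 1.80 of the 4 genes' sum in PFC (79.3 to 87.1%) and 83.0% ± 1.42 in hippocampus (80.3 to 87.1%). Its level per kb was 10.7 to 17.8 times that of Dlg1 in PFC and 18.4 to 31.3 times in hippocampus. Divided by the length of all exons of the gene instead, Dlg4 made up 64.8% in PFC and 65.6% in hippocampus and Dlg3 20.1% and 22.3%, so the sizes of these shares depend on the length used. All exons here are those of every transcript in GENCODE M21. Of these transcripts the table held 13 of 22 for Dlg4 and 10 of 17 for Dlg2. For Dlg1 and Dlg3 it held all 15 and all 8. The part of the absent transcripts in these shares was not tested.

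The other 3 genes shared the rest of the pool. In PFC, Dlg3 stood at 34.05 ± 3.50, Dlg2 at 30.5 ± 5.81 and Dlg1 at 29.8 ± 2.44 CPM per kb (SD, n = 24). Their values over all libraries overlapped, but within libraries Dlg1 stood above Dlg3 in 3 of 24. Differences between the genes were not tested. Per length of all exons they lay further apart: after saline Dlg3 stood at 23.7 ± 1.82, Dlg1 at 10.7 ± 0.443 and Dlg2 at 7.59 ± 1.32 (SD, n = 8). The order Dlg4, Dlg3, Dlg2, Dlg1 held in 10 of 24 PFC libraries. In hippocampus, Dlg3 stood at 36.8 ± 7.01, Dlg2 at 30.9 ± 6.18 and Dlg1 at 18.1 ± 2.34 CPM per kb (SD, n = 23). Within libraries Dlg2 stood above Dlg3 in 4 of 23. Dlg1 was the lowest of the 4 in 22 of 23 hippocampal libraries. The exception was hippocampus PICK1i replicate 7, where Dlg2 fell to 7.59 CPM per kb and stood below Dlg1. Dlg1 thus made up 5.80% of the family's counts per kb in PFC and 3.64% in hippocampus.

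**Figure D1:**
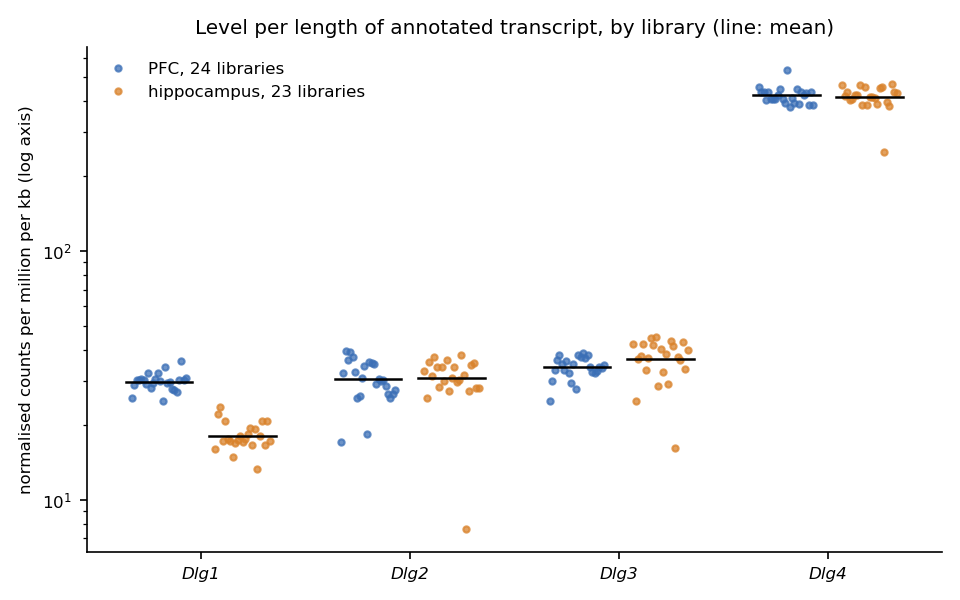
Level per length of the 4 genes in each library, as normalised CPM per kb of annotated transcript on a log axis, with PFC (24 libraries) in blue and hippocampus (23 libraries) in orange and a line at each mean. Dlg4 stood at 423 in PFC and 417 in hippocampus, and only the Dlg1 points of the regions lie apart, at 29.8 and 18.1.

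Dlg1 (chr16:31663443-31875129, 15 transcripts), the gene of SAP97, differed between the regions. After saline it measured 109 CPM in the lowest, 113 in the median and 124 in the highest of 8 PFC libraries, and 58.8, 65.3 and 89.3 CPM in 7 hippocampal ones. Under PICK1i, PFC gave 94.0, 109 and 119 CPM against 48.2, 65.7 and 80.8 for hippocampus. Under PSD-95i, PFC gave 104, 114 and 136 CPM against 60.4, 68.5 and 78.5 for hippocampus. All 23 hippocampal libraries lay below every PFC library, from 48.2 to 89.3 against 94.0 to 136 CPM. Such a complete separation with hippocampus lower held for 2.19% of the 15658 genes tested.

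The test gave the same picture for Dlg1 in each treatment. Hippocampus was lower than PFC by log2 -0.72 after saline (SE 0.079, adjusted p = 3.37e-10, edgeR's quasi-likelihood test with Benjamini-Hochberg adjustment), which is 1.64-fold. Under PICK1i the difference was -0.70 (SE 0.076, adjusted p = 1.97e-10) and under PSD-95i -0.79 (SE 0.076, adjusted p = 4.75e-12). One of the 4 members was thus called in each of these comparisons, where 38.3%, 36.8% and 45% of all genes were called, 18.8%, 18.3% and 21.9% with hippocampus lower. Dlg1 was called lower in all 3 treatments, as were 13.5% of all genes. The median gene differed by log2 0.01 in each. The change of this gap under a drug was not called (edgeR): it was log2 0.01 for PICK1i (95% interval -0.21 to 0.23; 0.07 without hippocampus PICK1i replicate 7) and -0.08 for PSD-95i (-0.29 to 0.14).

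Libraries with RNA of other regions stood at both ends of the Dlg1 values of hippocampus. The striatum-rich libraries hippocampus saline replicate 1 and hippocampus PICK1i replicate 2 had the highest Dlg1 of hippocampus, 89.3 and 80.8 CPM, and the thalamus-rich hippocampus PICK1i replicate 7 the lowest, 48.2. Hippocampus saline replicate 6, with a striatal sum of 64.5 CPM, was close behind at 80.4. Over the 23 libraries Dlg1 and the striatal sum gave r = 0.60 (rho = 0.32), and r = 0.20 without the 2 libraries farthest from the median sum, so the relation rests on those 2. In PFC, Dlg1 and upper cortex markers gave r = 0.57 (rho = 0.61), and 0.67 without the 2 farthest libraries. Thalamic markers gave the largest r there, 0.63 (rho = 0.48), and 0.49 without the 2 farthest libraries. Olfactory bulb markers gave -0.47, neuronal markers 0.45, oligodendrocyte markers -0.39, precursor markers -0.37 and deep cortex markers -0.33. These relations were picked after the values were seen, and the part of tissue makeup in Dlg1 was not tested. Without the 6 libraries high in markers of another region the regional difference was -0.79 after saline, -0.72 under PICK1i and -0.83 under PSD-95i. Without the 5 libraries high in choroid plexus markers it was -0.70, -0.71 and -0.87. Dlg1 was called in each of these fits. In bulk tissue, fewer cells that express a gene and less RNA per cell cannot be told apart.

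All main forms of Dlg1 were lower together. Start A, carried by 6 transcripts and led by Dlg1-201 and Dlg1-206, made up 66.3% ± 3.15 of Dlg1 counts in PFC and 67.6% ± 2.36 in hippocampus (SD, n = 24 and 23). Start B, carried by Dlg1-204, made up 31.6% ± 3.30 and 29.6% ± 2.33. Tested as transcripts, 7 of 7 Dlg1 transcripts were lower in hippocampus after saline, by log2 -1.08 to -0.66, where 24.9% of all 39163 transcripts were called. The same test called 4 of 7 under PICK1i and 7 of 7 under PSD-95i, against 24.4% and 32.9% of all transcripts. The 3 not called under PICK1i, Dlg1-202, Dlg1-203 and Dlg1-209, measured -0.33, -0.87 and -0.50 and each held at most 4.00% of the gene's counts on average in either region. Of the transcripts of the other genes, Dlg2-205 and Dlg4-213 were called under PSD-95i, higher in hippocampus by log2 0.95 and 0.51 (adjusted p = 0.0319 and 0.00772, edgeR), and each held under 1% of its gene's counts on average in either region. The widest gap of a single form was Dlg1-204 under PSD-95i, 33.2% of the gene in PFC and 29.4% in hippocampus, a difference of -3.79 points that did not pass after adjustment (exact two-sided permutation p = 0.0107, adjusted p = 0.162 over 18 transcripts).

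**Figure D2:**
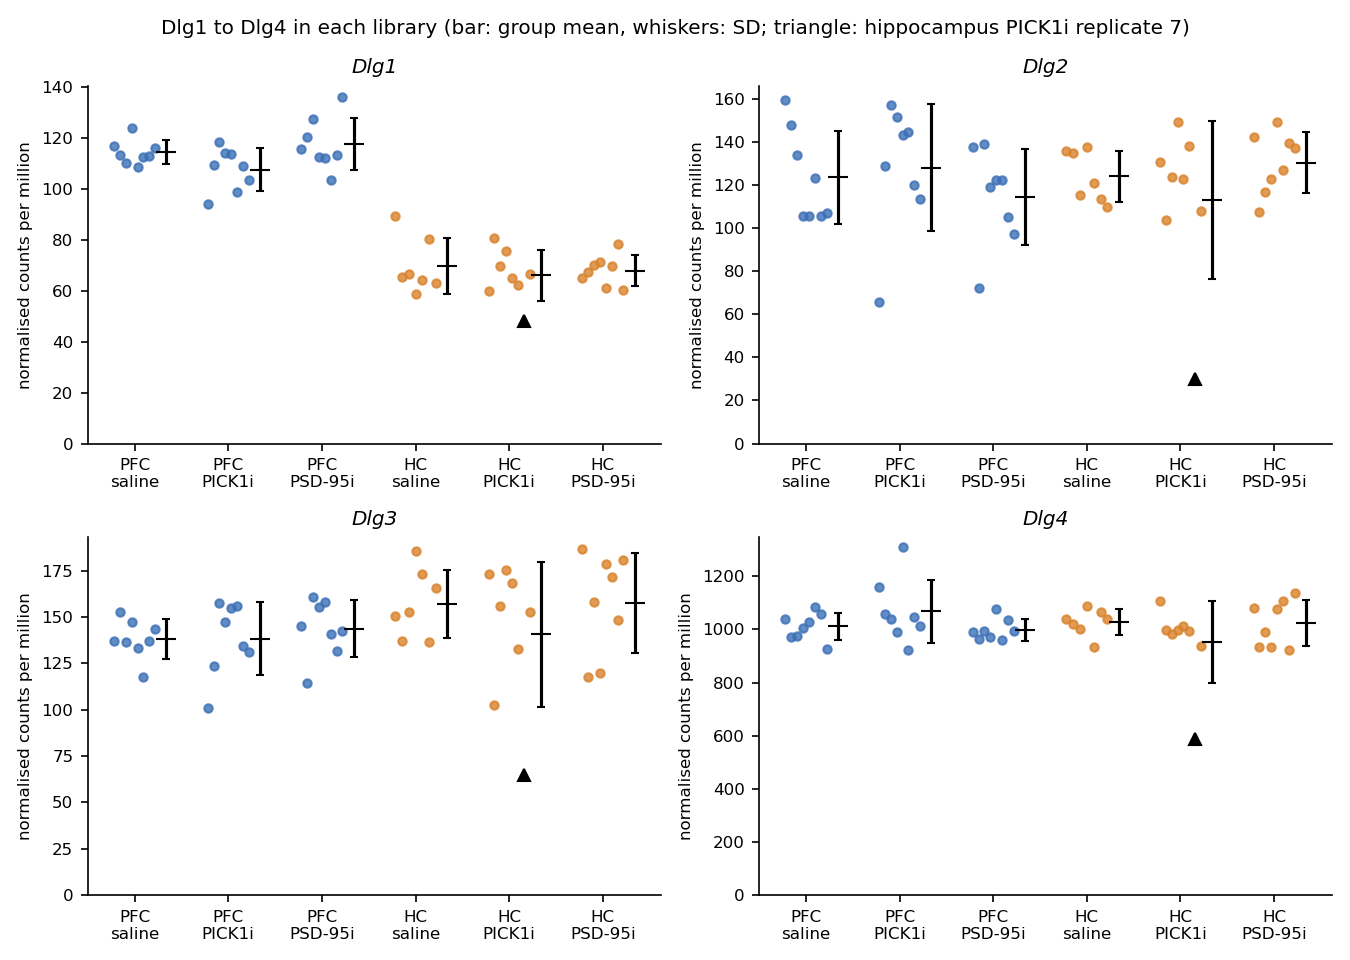
Normalised CPM of Dlg1, Dlg2, Dlg3 and Dlg4 in each of 47 libraries by group (HC, hippocampus), with the group mean and SD beside the points and a triangle for hippocampus PICK1i replicate 7. Dlg1 separates the regions, 94.0 to 136 against 48.2 to 89.3, while the other 3 genes overlap and the triangle lies lowest of its group in every panel.

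Dlg2 (chr7:90476672-92449247, 10 transcripts), the gene of PSD-93 and by far the longest of the 4 at 1972.6 kb, gave no call between the regions. After saline it measured 105, 115 and 159 CPM (lowest, median, highest) in PFC and 110, 121 and 138 in hippocampus. PICK1i libraries of PFC held 65.6, 136 and 157 CPM and those of hippocampus 30.1, 123 and 149. PSD-95i libraries of PFC held 72.4, 121 and 139 CPM and those of hippocampus 108, 132 and 149. Groups overlap in every treatment. The regional log2 difference was 0.00 after saline (95% interval -0.35 to 0.36), -0.17 under PICK1i and 0.19 under PSD-95i. Without hippocampus PICK1i replicate 7 the value under PICK1i was -0.03. Dlg2 also varied widely among libraries: its coefficient of variation reached 23.02% in PFC PICK1i and 32.4% in hippocampus PICK1i.

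Dlg3 (chrX:100767722-100818410, 8 transcripts), the gene of SAP102, did not pass the test between the regions. After saline it measured 117, 137 and 153 CPM in PFC and 137, 153 and 186 in hippocampus. PICK1i libraries of PFC held 101, 141 and 158 CPM and those of hippocampus 64.7, 154 and 175. PSD-95i libraries of PFC held 114, 144 and 161 CPM and those of hippocampus 118, 165 and 187. Of the 23 hippocampal libraries, 10 exceeded every PFC library and 1 lay below every PFC library. How many of all genes spread in this way was not counted. The log2 difference was 0.19 after saline (SE 0.13, adjusted p = 0.261, edgeR), 0.03 under PICK1i (0.13 without hippocampus PICK1i replicate 7) and 0.14 under PSD-95i. Fitted on the saline libraries alone, the saline difference of 0.19 did pass (adjusted p = 0.0316, edgeR).

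Within hippocampus, Dlg3 ran with markers of excitatory neurons and of the dentate gyrus. Its level moved with the summed markers of the dentate gyrus (Prox1, C1ql2 and Dsp) at r = 0.82 over 23 libraries (rho = 0.84), and at 0.82 without the 2 libraries farthest from the median marker sum. The lowest Dlg3 values, 64.7 and 102 CPM, stood in the libraries with the lowest dentate gyrus sums, 67.6 and 23.997 CPM. Markers of excitatory neurons gave r = 0.90 (rho = 0.85), and 0.77 without the 2 farthest libraries. General neuronal markers gave only 0.30 (rho = 0.20), and markers of inhibitory neurons -0.73 (rho = -0.74). In PFC, Dlg3 was lower where markers of oligodendrocytes were higher, with r = -0.74 over 24 libraries (rho = -0.75). These relations are on the log2 scale and were picked after the values were seen, and all points share the library's scaling and depth. The part of the makeup of the tissue piece in Dlg3 was not tested. The relation to excitatory markers is not shown to be particular to Dlg3. Dlg4 was lowest in hippocampus, at 589 CPM, in the library with the lowest excitatory sum, 1110. It was highest, at 1136 CPM, in that with the highest sum, 8883. Dlg2 was lowest, at 30.1 CPM, in the library with the lowest sum.

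**Figure D3:**
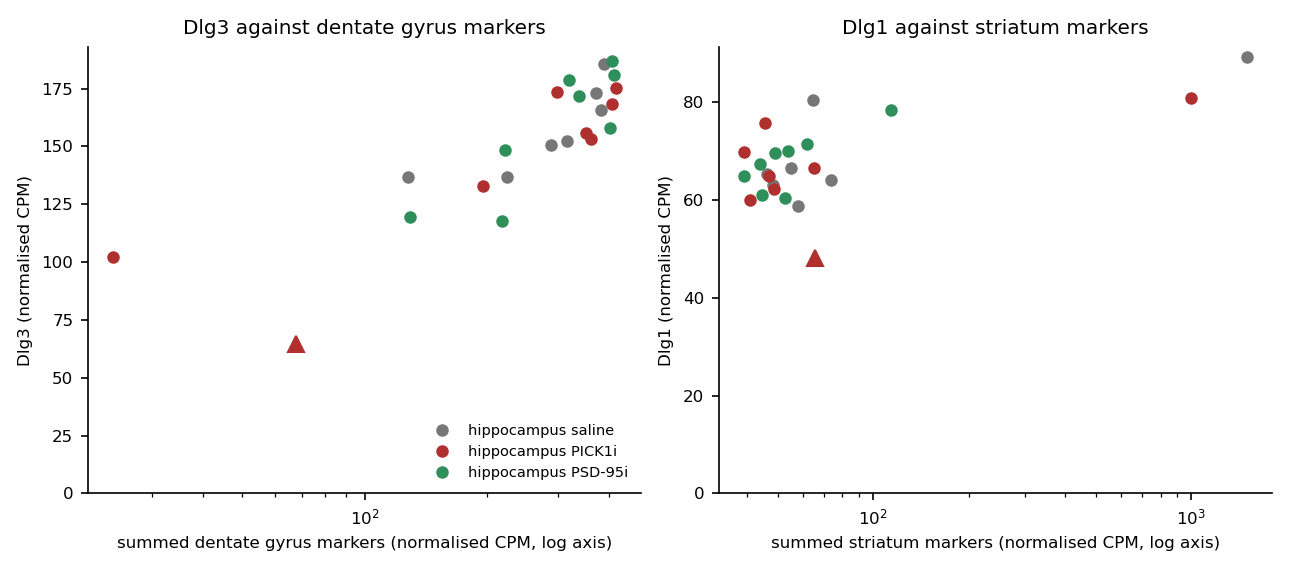
Dlg3 against summed dentate gyrus markers (left) and Dlg1 against summed striatal markers (right) in 23 hippocampal libraries, in normalised CPM with a log horizontal axis, coloured by treatment, with a triangle for hippocampus PICK1i replicate 7. Dlg3 is mostly higher at a higher dentate gyrus sum. Its lowest value, 64.7, stands at a sum of 67.6 and its highest, 187, at 407, while the lowest sum, 23.997, has 102. The highest Dlg1 values, 89.3 and 80.8, stand at striatal sums of 1494 and 995.

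Dlg4, the gene of PSD-95 and so of the target of one inhibitor, stood at like levels in both regions. After saline it measured 927, 1016 and 1083 CPM in PFC and 935, 1038 and 1088 in hippocampus. Under PICK1i, PFC gave 924, 1043 and 1310 CPM against 589, 995 and 1106 for hippocampus. Under PSD-95i, PFC gave 958, 991 and 1078 CPM against 924, 1033 and 1136 for hippocampus. The regions overlapped in every treatment. The regional log2 difference was 0.02 after saline (95% interval -0.13 to 0.17) and 0.04 under PSD-95i (-0.11 to 0.18). Under PICK1i it was -0.17 (SE 0.073, adjusted p = 0.0698, edgeR), and without hippocampus PICK1i replicate 7 it was -0.09 (adjusted p = 0.202, edgeR). Without hippocampus PICK1i replicate 1 or PFC PICK1i replicate 6 it was -0.20 and passed.

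The forms of Dlg4 took similar shares in both regions. Dlg4-201, whose annotated start E lies downstream of the other starts, took 59.6% ± 2.11 of the gene's counts in PFC and 59.2% ± 2.18 in hippocampus (SD, n = 24 and 23). Dlg4-204, which holds nearly all of start A, took 20.5% ± 0.795 and 20.9% ± 0.699. Start B, the form with the cysteine pair, is carried by Dlg4-203 and Dlg4-210 and took 14.9% ± 1.34 in PFC and 14.5% ± 1.73 in hippocampus. The remaining starts C, which also has a pair of cysteine codons, and D took 0.193% and 2.66% in PFC. Counts were estimated from 52-bp read pairs, and forms that share most exons are told apart by few reads, so these shares depend on the authors' assignment.

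Dlg2 and Dlg3 held many counts on transcripts with no annotated coding start. In Dlg2, start A with its 2 cysteine codons took 41.4% ± 2.04 of counts in PFC and 40.1% ± 1.69 in hippocampus. Starts B and C, without cysteine codons in these bases, took 13.9% and 9.82% in PFC and 14.3% and 9.61% in hippocampus. Transcripts with no coding start took 34.9% ± 2.10 and 35.9% ± 2.32, mostly Dlg2-208, which begins far inside the gene. In Dlg3, start A with 4 cysteine codons took 40.1% ± 1.43 and 39.6% ± 2.49, start B 8.18% and 8.06%, and transcripts with no coding start 51.7% ± 1.87 and 52.4% ± 2.22. The last group was led by the processed transcript Dlg3-208 (34.1% and 34.2%) and the retained-intron form Dlg3-206 (17.5% and 18.1%).

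No share of a transcript differed between groups after adjustment. Of the 46 transcripts, 18 held at least 5% of their gene's counts in either region, and exact two-sided permutation tests over libraries called 0 of 18 in each of the 9 comparisons. Between 0 and 3 of 18 had an unadjusted p under 0.05. The smallest adjusted p was 0.0979, for Dlg3-202 in hippocampus, 12.8% ± 1.03 under PICK1i and 14.2% ± 0.713 after saline (exact permutation, n = 8 and 7). Without PICK1i replicate 7 its adjusted p was 0.147 (exact permutation). Leaving out 1 library brought 4 other shares past the test. They were Dlg1-204 between regions under PSD-95i (-4.34 points without PFC PSD-95i replicate 7) and, between the inhibitors, Dlg2-202 in hippocampus (1.82 points without PSD-95i replicate 4), Dlg3-202 in hippocampus (2.15 points without PSD-95i replicate 7) and Dlg3-203 in PFC (1.42 points without PICK1i replicate 5 and 1.43 without PSD-95i replicate 4). Dlg2-201 was lower in hippocampus in each treatment, 10.7% against 11.8% after saline, 10.2% against 11.9% under PICK1i and 10.5% against 12.4% under PSD-95i, with adjusted p of 0.337, 0.313 and 0.162 (exact permutation). The 12 coding starts gave 0 calls as well, with a smallest adjusted p of 0.109.

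A test across all transcripts gave the same count. edgeR's diffSpliceDGE, which asks whether a transcript changed relative to its gene, called 0 of the 28 to 31 Dlg transcripts tested in each comparison. Across all transcripts it called 0.173% after saline, 0.13% under PICK1i and 0.455% under PSD-95i between regions, and 0% in each of the 6 drug comparisons. Up to 2 Dlg transcripts had an unadjusted p under 0.05 in a comparison, all of them Dlg4-205 or Dlg4-213, which hold under 1% of the gene's counts.

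**Figure D4:**
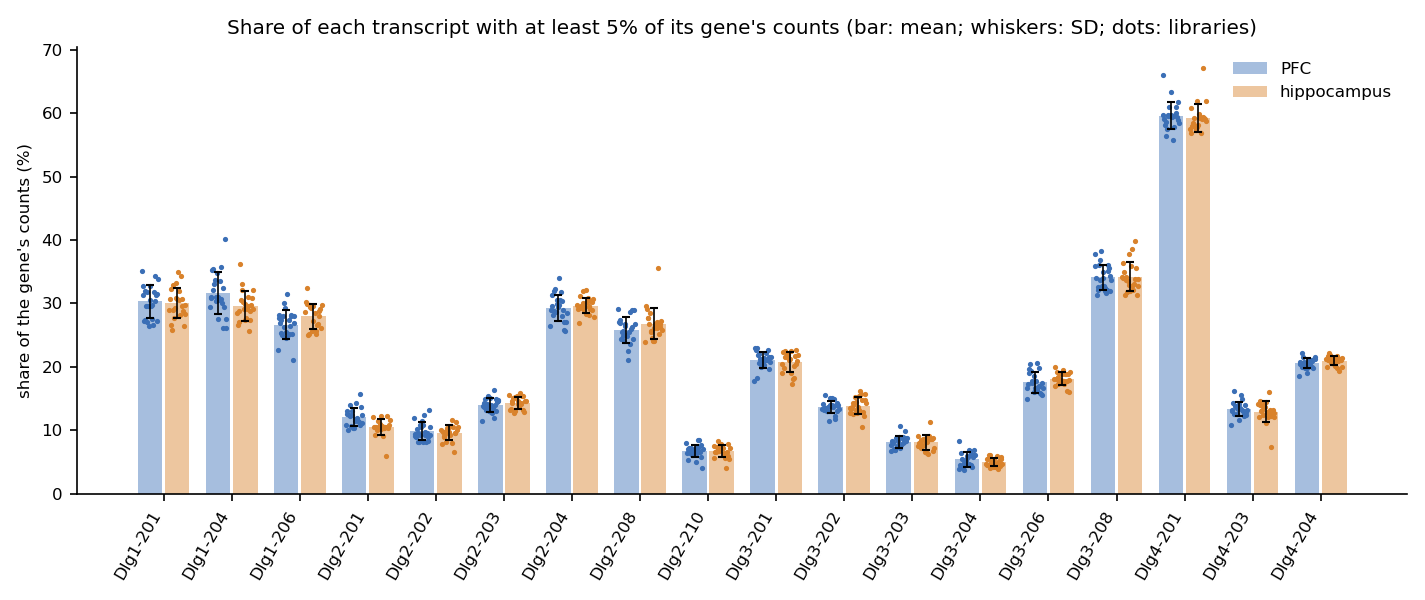
Share of the gene's counts, in percent, of the 18 transcripts with at least 5% of their gene, as the mean over PFC (blue, 24 libraries) and hippocampus (orange, 23 libraries) with SD whiskers and a dot for each library. The whiskers of the regions overlap for every transcript, with Dlg4-201 at 59.6% and 59.2%, and the dot at 67.1% is hippocampus PICK1i replicate 7.

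Neither drug gave a call among the 4 genes. Saline is the reference for the effect of a drug, and the drugs were also compared directly at the doses given. In PFC, PICK1i against saline gave log2 -0.09 for Dlg1, 0.05 for Dlg2, 0.00 for Dlg3 and 0.08 for Dlg4, and 0 of 4 were called beside 0.201% of 14911 genes (edgeR). The 95% intervals of the 4 genes ran from -0.26 to 0.35. PSD-95i against saline gave 0.03, -0.12, 0.05 and -0.02 in the same order, with intervals from -0.43 to 0.21, and 0 of 4 were called beside 0% of all genes. That comparison had 946 genes with an unadjusted p under 0.05, none of them a member.

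PSD-95i against PICK1i in PFC had the one small p. Dlg1 measured 118 ± 10.1 CPM under PSD-95i and 108 ± 8.34 under PICK1i (SD, n = 8 each), and the groups overlap. The log2 difference was 0.12 (SE 0.055, unadjusted p = 0.0330, adjusted p = 0.464, edgeR). No member was called, beside 0.335% of genes. Dlg4 measured -0.10 (95% interval -0.22 to 0.02), Dlg2 -0.16 and Dlg3 0.05.

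In hippocampus the drug comparisons called 0 of 4 members and 0% of 15051 genes. PICK1i against saline gave log2 -0.08 for Dlg1, -0.13 for Dlg2, -0.16 for Dlg3 and -0.11 for Dlg4, with 95% intervals from -0.52 to 0.26. PSD-95i against saline gave -0.04, 0.07, 0.00 and -0.01, with intervals from -0.32 to 0.46. PSD-95i against PICK1i gave 0.04, 0.20, 0.16 and 0.10, with intervals from -0.18 to 0.58, and without hippocampus PICK1i replicate 7 -0.01, 0.06, 0.06 and 0.03. Unadjusted p was under 0.05 for 580, 231 and 734 genes in these comparisons, none of them a member. The difference of the drug effect between regions was called for no member, where 0.00639% of genes were called for PICK1i and 0% for PSD-95i. For Dlg4 the difference of effects was log2 -0.19 for PICK1i (95% interval -0.40 to 0.02; -0.11 without hippocampus PICK1i replicate 7) and 0.01 for PSD-95i (-0.20 to 0.22). The comparisons within a region share their saline or inhibitor libraries, and the 2 drug effects share the same saline libraries.

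**Figure D5:**
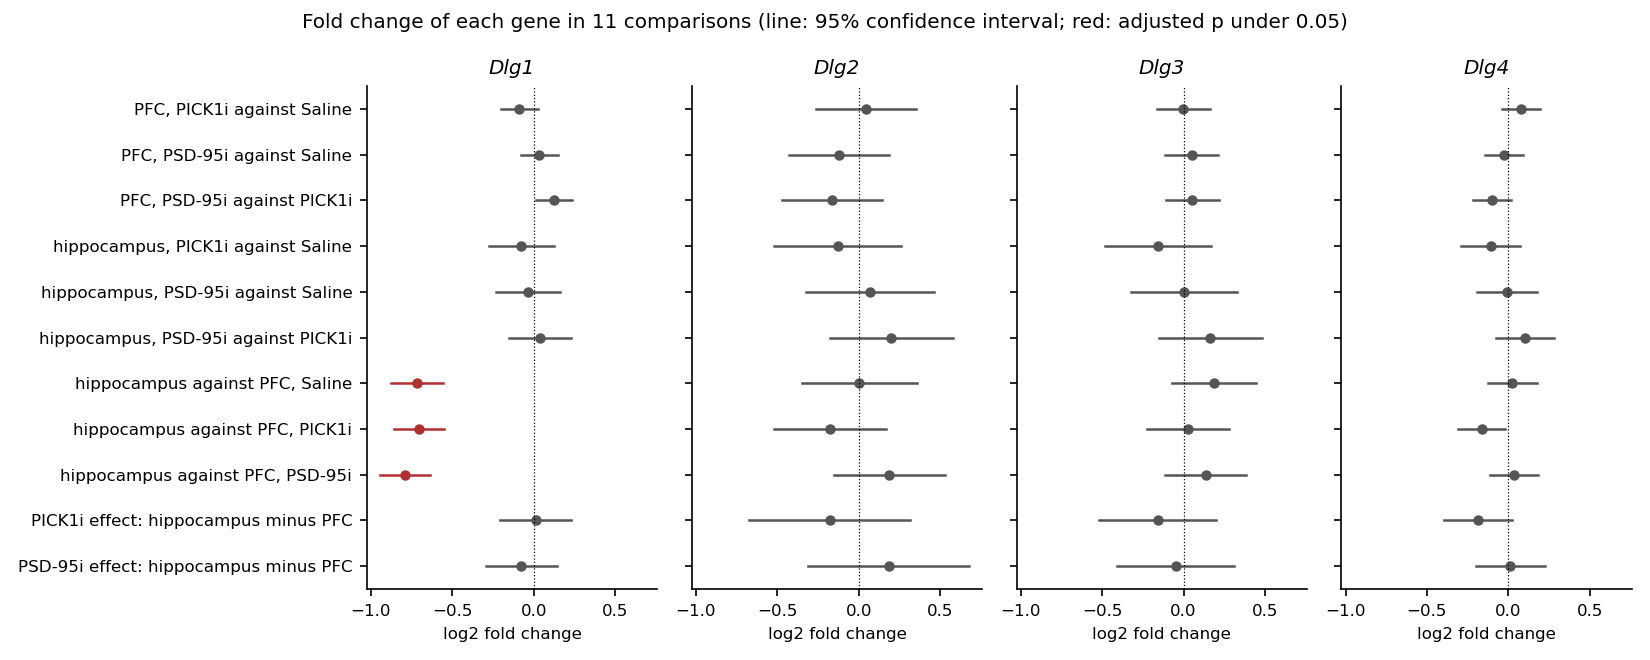
Log2 fold change of each gene in the 11 comparisons with its 95% confidence interval, and in red those with an adjusted p under 0.05 (edgeR). The red points are Dlg1 in hippocampus against PFC, at -0.72, -0.70 and -0.79, and the intervals of all drug comparisons but one, Dlg1 in PFC between the inhibitors, reach across 0.

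The negative values of all 4 genes in hippocampus under PICK1i shrank or changed sign when a single library was left out. In replicate 7 of that group Dlg2 measured 30.1 CPM, 24.04% of the mean of the other 7 libraries (125 ± 15.9, SD). Dlg3 stood at 42.7% of the others' mean, Dlg4 at 58.6% and Dlg1 at 70.3%. The same library had the highest thalamic and the lowest excitatory marker sum of its group, and 14.2% of its counts were mitochondrial. Its Dlg4 shares also stood apart, with 67.1% Dlg4-201 against at most 60.9% in the rest of the group and 7.37% Dlg4-203 against at least 12.1%. Without this library PICK1i against saline in hippocampus gave log2 -0.02 for Dlg1, 0.01 for Dlg2, -0.05 for Dlg3 and -0.03 for Dlg4. Leaving out another library instead gave -0.0055 for Dlg1, so the Dlg1 value does not rest on replicate 7 alone. The part of regional makeup in these values was not tested. In PFC, the lowest Dlg2 (65.6 CPM), Dlg3 (101 CPM) and Dlg1 (94.0 CPM) of the region all stood in PICK1i replicate 1, which had 16.7% mitochondrial counts, while its Dlg4 was 1160 CPM.

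The 4 genes did not vary as a block from library to library. After subtracting each group's mean, Dlg2 and Dlg3 ran together at r = 0.79 over 47 libraries, 0.76 in PFC and 0.82 in hippocampus. Dlg2 and Dlg4 gave 0.58 over all, but -0.14 in PFC and 0.88 in hippocampus. Without hippocampus PICK1i replicate 7 the value over all was 0.01 and that in hippocampus 0.39. Dlg3 and Dlg4 gave 0.58, and 0.18 without that library. Dlg2 and Dlg3 still gave 0.60 without it. Dlg1 gave 0.17 to 0.40 with the others over 47 libraries, and -0.21 to 0.06 without that library. With all libraries Dlg1 and Dlg3 gave 0.37 in PFC and 0.12 in hippocampus, and Dlg1 and Dlg4 gave 0.04 and 0.34. Without that library the hippocampal values turned negative, at -0.49 and -0.31. These are descriptions of libraries that share scaling, and no p is given.

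Among 13003 genes tested in both regions, those most like each member in the same sense were named. Dlg1 ran closest with Ngef (r = 0.80), a guanine nucleotide exchange factor, then Plxnd1 (0.77), a semaphorin receptor, and Lrrk2 (0.75), a kinase. For Dlg2 they were Psd3 (0.94), an Arf exchange factor, Prrc2b (0.93) and the dendritic microtubule protein Map2 (0.93). Dlg3 had Abr (0.95), Sphkap (0.94) and Foxk1 (0.94). Dlg4 had the junctophilin Jph4 (0.89), the sulfotransferase Chst1 (0.89) and the calcium sensor Hpca (0.88). Without hippocampus PICK1i replicate 7 the values for Dlg4 fell to between 0.71 and 0.74, those for Dlg1 to between 0.67 and 0.75, and those for Dlg2 and Dlg3 stayed between 0.87 and 0.93.

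Genes that work with the scaffolds were read from 6 lists with 126 genes in all. Between regions after saline, 70 of 126 were called, against 38.3% of all genes. The lists were chosen for a role with these scaffolds, and their counts are descriptions.

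The receptors and channels bound by these scaffolds moved in both directions. After saline 6 of 24 were higher in hippocampus, 10 lower and 8 not called, with a median log2 difference of -0.16 against 0.01 over all genes. Of all genes 38.3% were called. Gria1, the AMPA receptor subunit GluA1 that SAP97 binds, was higher by log2 1.78 (1364 ± 182 CPM against 398 ± 53.6, SD, n = 7 and 8, adjusted p = 7.41e-12, edgeR). The TARP subunits split: Cacng8 was higher by 1.22, while Cacng3 was lower by 0.96 and Cacng2 by 0.76. The serotonin receptor Htr2a differed by -1.64 and the adrenergic receptor Adrb1 by -1.14. Of the NMDA receptor subunits, Grin2a was higher by 0.61, Grin1 differed by -0.17, and Grin2b measured 0.30 (adjusted p = 0.0760, edgeR). In all 3 treatments 9 of 24 were lower and 4 higher, against 13.5% and 13.4% of all genes.

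Among scaffold partners of the postsynaptic density, 3 of 24 were higher in hippocampus after saline, 6 lower and 15 not called, with a median of -0.06. The 9 called are a share near the 38.3% of all genes. Homer3, a Homer protein that links metabotropic receptors to scaffolds, rose from 6.43 ± 1.26 to 57.0 ± 7.22 CPM (log2 3.15, adjusted p = 3.36e-15, edgeR). Nos1, the neuronal nitric oxide synthase that docks on PSD-95, was higher by 1.53. Homer1 differed by -0.89 and the kinase Cit by -1.38. Over the 3 treatments Cit ran from -1.67 to -0.64 and was called in 2. In all 3 treatments 4 of 24 were lower and 2 higher, against 13.5% and 13.4% of all genes.

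Relatives of the same protein family were split between the regions. After saline 6 of 19 were higher in hippocampus, 6 lower and 7 not called, with a median of 0.00. Over all genes 38.3% were called. The calcium channel subunit Cacnb4 measured 35.7 ± 6.66 CPM in hippocampus against 78.7 ± 10.9 in PFC (log2 -1.14, adjusted p = 3.32e-09, edgeR). The scaffold Magi1 differed by -0.87 and Dlg5, a more distant relative, by 0.90. Tjp3, a tight junction protein, was higher by 3.51 but near the detection limit, at 2.74 CPM against 0.221, and choroid plexus markers were also higher in hippocampal than in PFC libraries, and their part in this value was not tested.

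Adhesion proteins and ligands bound by the scaffolds were called in both directions. After saline 7 of 19 were higher in hippocampus, 5 lower and 7 not called, with a median of 0.08. The share called over all genes was 38.3%. The ephrin receptor Epha7 measured 170 ± 54.6 CPM in hippocampus against 62.5 ± 9.80 in PFC (log2 1.44, adjusted p = 1.33e-06, edgeR). The leucine-rich repeat proteins Lrrtm1 and Lrrtm4 were higher by 1.14 and 0.72, and Slitrk1 differed by -0.73. The same 7 and 5 genes were called in those directions in all 3 treatments, against 13.4% higher and 13.5% lower of all genes.

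Genes for the palmitoylation and turnover of PSD-95 were called in both directions. After saline 4 of 17 were higher in hippocampus, 8 lower and 5 not called, with a median of -0.13, where 18.8% of all genes were lower. The palmitoyltransferase Zdhhc8 measured 127 ± 10.9 CPM in hippocampus against 234 ± 21.4 in PFC (log2 -0.89, adjusted p = 2.96e-14, edgeR), and Zdhhc2, which acts on PSD-95 in dendrites, differed by -0.59. The depalmitoylase Abhd17c was higher by 0.77 and the kinase subunit Camk2b by 0.82. In all 3 treatments 6 of 17 were lower and 4 higher, against 13.5% and 13.4% of all genes.

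Among neuronal splicing factors, 4 of 23 were higher in hippocampus after saline, 5 lower and 14 not called, with a median of 0.06. The 9 called are again a share near the 38.3% of all genes. Elavl4 measured 45.6 ± 11.5 CPM in hippocampus against 95.1 ± 11.1 in PFC (log2 -1.06, adjusted p = 4.94e-08, edgeR). Nova1 differed by -0.94, Rbfox3 by -0.55 and Srrm3 by -0.39. Ptbp1 and Ptbp2, which are known to repress an exon of Dlg4, measured 0.17 (adjusted p = 0.119, edgeR) and 0.26 (adjusted p = 0.0207). In all 3 treatments 4 of 23 were lower and 2 higher, against 13.5% and 13.4% of all genes.

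Under the drugs none of the list genes was called. Of the 125 tested in PFC, 7 had an unadjusted p under 0.05 for PICK1i against saline, 9 for PSD-95i against saline and 17 between the inhibitors, which is 5.60%, 7.20% and 13.6% against 5.71%, 6.34% and 9.60% of all genes. Of the 126 tested in hippocampus, 3, 0 and 6 had one in the same order of comparisons. That is 2.38%, 0% and 4.76% against 3.85%, 1.53% and 4.88% of all genes. The smallest adjusted p of the lists was 0.109, in PFC between the inhibitors (edgeR).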

How the data were processed

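Polyadenylated RNA of mouse PFC and hippocampus was sequenced as 52-bp read pairs from stranded libraries, per the labels' protocols. The authors deposited estimated counts per gene and per transcript; bcl2fastq 2.20.0, STAR, Salmon and the build GRCm38 are named in the submitters' processing notes, and the notes and labels give neither the annotation nor the strand setting of the counting. Expected counts as deposited were rounded to whole numbers. Gene symbols and groups came from the table and the labels; transcript lengths, starts and coding sequence came from GENCODE M21, which held 108214 of the 109617 transcripts. Genes were filtered with filterByExpr (minimum count 10, total 15), scaled by TMM and tested with edgeR 4.0.16's quasi-likelihood test under R 4.3.3, 1 fit per region and 1 of all 6 groups for the comparisons between regions, with Benjamini-Hochberg adjustment over all genes and a threshold of 0.05. Transcript use was tested with diffSpliceDGE, and shares with exact two-sided permutation over libraries, adjusted over 18 transcripts or 12 starts. Alternatives used limma 3.58.1 and DESeq2 1.42.0, other scalings and filters, the replicate block and left-out libraries. Scripts were tested on simulated data.

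The named genes were the 4 members, their transcripts with at least 5% of the gene's counts or a call, up to 4 called genes of each list with the largest change, and the 3 genes most like each member. Other genes named from the lists (Cacng2, Cacng3, Grin1, Grin2a, Grin2b, Ptbp1 and Ptbp2) and the leaving out of libraries high in other regions were chosen after values were seen. Members and lists were chosen with earlier results of these data known. Dlg2 shares 75 and 150 exon bases with 2 other annotated genes on its strand, so some of its counts could be theirs. No libraries of the same group were duplicates: the smallest chi-square per gene between libraries of a group was 3.04. Libraries of different groups were not compared in this way.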

Additional observations from a re-analysis of the deposited data

Results flagged for a closer look

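Values were checked for a library far from the rest of its group by Dixon's criterion in 132 sets of values, and chance alone gives about 1 such library in 20 sets. There were 10, and 6 of them were in hippocampus PICK1i replicate 7, the library rich in thalamic markers. Its Dlg2 level was 30.1 CPM against 104 to 149 in the other 7 libraries, and its Dlg4 level 589 CPM against 939 to 1106. Its share of Dlg4-201 was 67.1% against 57.6 to 60.9%, that of Dlg4-203 7.37% against 12.1 to 14.4%, that of Dlg3-202 10.5% against 12.6 to 13.6% and that of Dlg3-203 11.3% against 7.46 to 9.13%.

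The other 4 were transcript shares, each in a different library. Dlg1-204 took 36.1% of Dlg1 in hippocampus PICK1i replicate 4 against 26.7 to 28.8% in the rest of the group, and 25.7% in hippocampus PSD-95i replicate 6 against 29.1 to 30.99%. Dlg2-204 took 33.9% in PFC PICK1i replicate 6, the library high in olfactory bulb markers, against 26.4 to 29.7%. Dlg3-202 took 11.4% in PFC saline replicate 6 against 12.99 to 13.97%.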

How the results depend on the processing

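Dlg1 was lower in hippocampus with an adjusted p under 0.05 in each of the 10 alternative fits and in each of the 47 fits without 1 library. Its log2 difference ran over the alternatives from -0.79 to -0.70 after saline, -0.72 to -0.69 under PICK1i and -0.87 to -0.79 under PSD-95i. The count of members called between regions rose from 1 to 2 after saline in the fit of the groups compared alone (Dlg3), and under PICK1i at an adjusted p under 0.1 (Dlg4). Without PFC PICK1i replicate 6 or hippocampus PICK1i replicate 1 it was also 2, and over the fits without 1 library it ran from 1 to 2. DESeq2 on transcript counts, which tests a transcript's level and not its share, called 7 Dlg transcripts after saline, 5 under PICK1i and 9 under PSD-95i between regions, where diffSpliceDGE called 0. The share of all transcripts that DESeq2 called was not counted. In edgeR's test of level, which is another test, it was 24.9%, 24.4% and 32.9%. Whether the DESeq2 counts differ from the DESeq2 share of all transcripts cannot be said. With the length of all exons, Dlg1 made up 8.85% and 5.55% of the 4 genes in PFC and hippocampus, Dlg3 20.1% and 22.3% and Dlg4 64.8% and 65.6%. Transcript shares called ran from 0 to 1 without 1 library, between the inhibitors in PFC and in hippocampus and between regions under PSD-95i.

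Libraries of a number share only that number by the labels. Over 9 pairs of groups, 1 to 4 of the 7 or 8 same-numbered pairs had a correlation over 0.1 (-0.38 to 0.46 in all), and 1 to 3 correlated best with their own number, so the numbers were not taken to pair the libraries. With the replicate number as a block, 1 member was called in each regional comparison and 0 in each drug comparison, as without it.

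Signs changed only in differences that no fit called, most of them near 0, but with first values of up to 0.16 (Dlg3, PSD-95i against PICK1i in hippocampus) and down to -0.17 (Dlg2 between regions under PICK1i). Without the libraries high in another region, PICK1i against saline in hippocampus gave 0.0031 for Dlg1, 0.076 for Dlg2 and 0.013 for Dlg3, PSD-95i against saline 0.033 for Dlg1 and -0.0044 for Dlg3, and PSD-95i against PICK1i -0.018 for Dlg3. The same set gave 0.025 for Dlg2 between regions under PICK1i and 0.044 for the difference of the PICK1i effect on Dlg3. Without the choroid plexus libraries Dlg1 gave -0.026 between the inhibitors in hippocampus and -0.0067 for the difference of the PICK1i effect. Voom with quality weights gave 0.035 for Dlg2 under PICK1i and 0.012 for Dlg4 under PSD-95i against saline in hippocampus, and -0.0054 for Dlg2 between regions after saline. The replicate block gave -0.0094 for the last and -0.034 for Dlg3 under PSD-95i against saline in hippocampus. Without 1 library, PICK1i against saline in PFC ran from -0.00081 to 0.15 for Dlg2 and -0.033 to 0.054 for Dlg3, and PSD-95i against PICK1i in PFC from -4.49e-05 to 0.094 for Dlg3. In hippocampus, PICK1i against saline ran from -0.20 to 0.012 for Dlg2, and PSD-95i against saline from -0.073 to 0.034 for Dlg1, -0.033 to 0.056 for Dlg3 and -0.029 to 0.011 for Dlg4. PSD-95i against PICK1i there ran from -0.012 to 0.087 for Dlg1. Between regions the ranges were -0.033 to 0.060 for Dlg2 and -0.00050 to 0.035 for Dlg4 after saline, and -0.032 to 0.13 for Dlg3 under PICK1i. The difference of the PICK1i effect on Dlg1 ran from -0.035 to 0.083, and that of the PSD-95i effect from -0.092 to 0.00043 on Dlg3 and -0.010 to 0.032 on Dlg4. The cause of these changes was not tested. Estimated counts of 5378175 to 13139410 a library limit what small changes can be seen.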
